A study of Homo sapiens with 6 samples.

Results

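The genes described here encode the receptors for glutamate, GABA and glycine, and they were read in Kelly cells, an established neuroblastoma cell line in which the oncogene MYCN is amplified. They were chosen by gene name alone, as every gene whose symbol follows the naming of the AMPA, kainate, delta, NMDA and metabotropic glutamate receptors, the GABA-A and GABA-B receptors, or the glycine receptors. This rule gave 52 of the 19923 genes in the count tables, and the rule itself uses no measured value. Poly(A) RNA was sequenced 72 h after transfection, in 3 libraries of cells given a control siRNA (named siControl) and 3 of cells given an siRNA that targets METTL3 (named siMETTL3). Both groups carry the same WT genotype, come from this 1 cell line and were transfected with the same lipid reagent, so the siRNA is the labelled difference. METTL3 is the enzyme that places N6-methyladenosine on messenger RNA. The labels do not say that the libraries came from separate cultures, so the p-values below measure only the spread between these libraries, which may be technical.

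Ionotropic glutamate receptors are cation channels built from 4 subunits, and the subunits that a cell expresses set the channel's speed, its calcium permeability and its drug sensitivity. GABA-A and glycine receptors are chloride channels built from 5 subunits and carry most fast inhibition in the central nervous system. The metabotropic glutamate receptors and the GABA-B receptor are G protein-coupled receptors that tune release and excitability. Neuroblastoma arises from the sympathetic lineage of the neural crest, and its cells express many neuronal genes.

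The libraries held between 15430000 (siControl replicate 3) and 21565013 (siMETTL3 replicate 2) assigned read counts. METTL3 itself was read at 53.5, 52.8 and 56.2 CPM (read counts scaled to a common library size, per 1000000 reads) in siControl replicates 1, 2 and 3, and at 32.99, 31.8 and 34.3 CPM in siMETTL3 replicates 1, 2 and 3. It fell to 61.0% of the control level (log2 fold change -0.71 ± 0.070 SE, false discovery rate, FDR, 4.68e-06 by edgeR's quasi-likelihood test with Benjamini-Hochberg adjustment over all 15311 genes tested). Every FDR below comes from that same test, except where another setting or a left-out library is named. All folds and log2 values compare siMETTL3 with siControl. The summed level of 8 noradrenergic neuroblastoma markers was 3188 to 3427 CPM in siControl and 4256 to 4620 CPM in siMETTL3, with 5 markers higher and 1 lower. In contrast, 4 immune markers summed to 1.41 to 2.87 CPM over the 6 libraries, with MS4A1 at 0 in all of them. The 3 endothelial markers summed to 4.98 to 5.91 CPM in siControl and 6.95 to 9.25 CPM in siMETTL3. Most of that sum was VWF, at 3.85 to 5.21 CPM in siControl and 6.66 to 8.77 CPM in siMETTL3. VWF rose (log2 fold change 0.68, FDR 0.00592), PECAM1 did not pass (-0.95, FDR 0.143) and CDH5 was too low to test. Of the Schwann and glial list, 4 genes were analysed and summed to 5.38 to 5.75 CPM in siControl and 8.50 to 9.51 CPM in siMETTL3, while 6 fibroblast markers summed to 85.3 to 99.2 CPM and 87.2 to 93.8 CPM. Most of the fibroblast sum was PDGFRB, at 78.4 to 92.7 CPM in siControl and 80.3 to 86.9 CPM in siMETTL3 (FDR 0.74). COL1A1 rose (log2 fold change 0.86, FDR 0.0200) and COL3A1 did not pass (-0.64, FDR 0.0629). COL1A2, LUM and DCN were too low to test. The part of these marker shifts in the receptor results was not tested. In bulk RNA, fewer cells that express a gene and less RNA of that gene per cell cannot be told apart.

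Of the 52 receptor genes, 40 had enough reads to be tested. Among them, 8 rose, 11 fell and 21 did not pass FDR 0.05. This makes 47.5% called, beside 37.8% of all 15311 genes tested (18.6% higher and 19.2% lower). The 3 siControl and 3 siMETTL3 values did not overlap for 22 of the 40 receptor genes, beside 49.9% of all tested genes. They were higher in siMETTL3 for 11, beside 24.8% of all tested genes, and lower for 11, beside 25.1%. The median receptor gene moved by -0.0018 on the log2 scale and the median of all tested genes by -0.0021. The median size of the change, without its sign, was 0.41 for the receptor genes and 0.21 for all tested genes. The spread between siControl libraries was also wider for the receptor genes (median coefficient of variation 11.8%, beside 8.39% for all tested genes). Its part in that difference was not tested. At least 2-fold increases that passed the FDR were seen for 4 of 40 receptor genes, GRIK3, GRIK4 and GRM4 among them, beside 2.74% of all genes. No receptor gene fell 2-fold, beside 0.607% of all genes. GRIK3 lay close to the 2-fold line. Over the alternative settings described below its log2 fold change ran from 0.80 to 1.10, always past FDR 0.05. The counting took every read over a gene's whole span, introns included, and 29 of the 40 tested receptor genes (72.5%) span more than 100 kb, compared with 22.2% of all tested genes. Of all 3397 tested genes that long, 43.98% were called, with 962 higher and 532 lower. How much of each receptor count is intronic RNA was not tested.

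**Figure D1:**
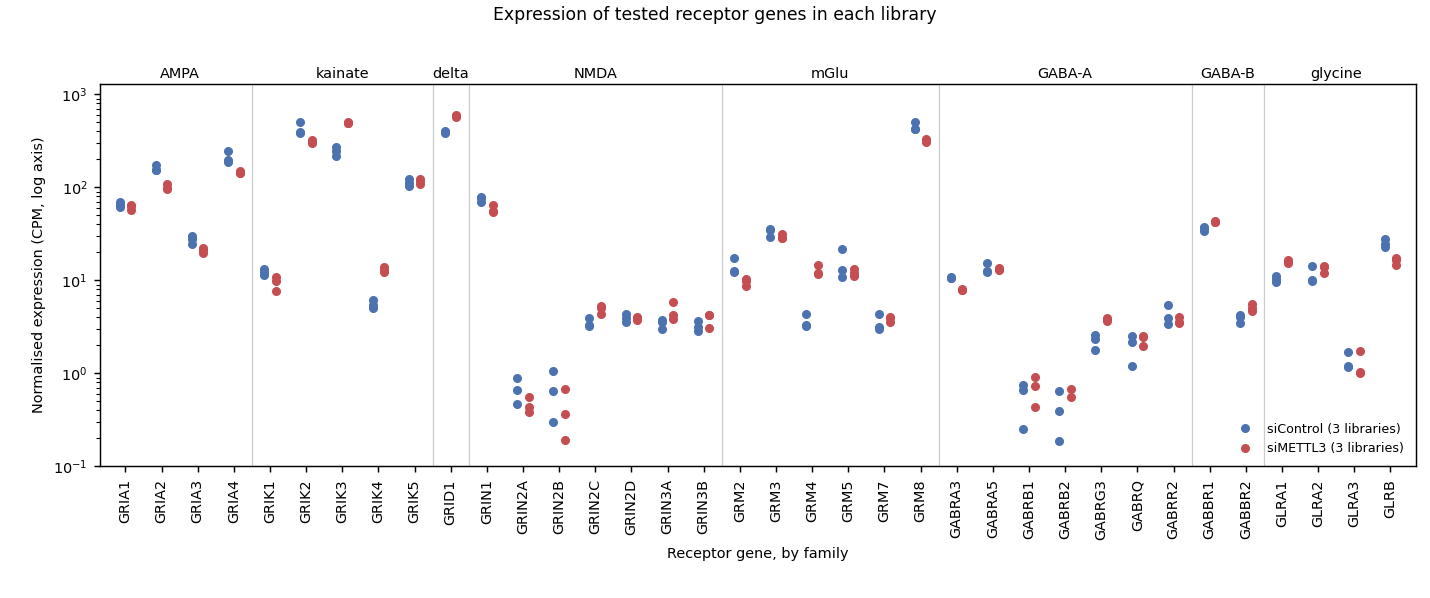
Normalised expression (CPM, log axis) of 36 tested receptor genes, grouped by family on the horizontal axis; each point is 1 library, with siControl to the left and siMETTL3 to the right of each gene's position. The points of GRIK3 and GRM4 lie wholly higher in siMETTL3 and those of GRIA2 and GRM8 wholly lower; the 0 of GABRB2 in siMETTL3 replicate 3 cannot be drawn on a log axis.

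To compare levels between genes, CPM was divided by the length of each gene's canonical transcript. On this scale of CPM per kb of transcript, the metabotropic receptor gene GRM8 ranked first in siControl at 121.9, followed by the kainate receptor gene GRIK2 at 90.5, and the delta receptor gene GRID1 at 63.9. Further down, the AMPA receptor gene GRIA4 stood at 38.1, GRIA2 at 28.7, GRIK3 at 25.8, GRIK5 at 24.9 and the NMDA receptor gene GRIN1 at 17.1. In siMETTL3 the order changed: GRID1 ranked first at 95.5, GRM8 second at 84.9, GRIK2 next at 65.3, and GRIK3 stood at 52.3 CPM per kb of transcript. These are levels set side by side and not tests between genes. The order rests on the length chosen, since per kb of the whole gene span GRIN1 led in siControl, followed by GRIK5 and GRM2.

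AMPA receptors carry most fast excitatory transmission, and 3 of their 4 genes fell while none rose. Beside the call counts of this and the following receptor families stand 18.6% of all tested genes higher and 19.2% lower. All 4 AMPA genes span more than 100 kb, and of all tested genes that long 43.98% were called. GRIA2, whose edited subunit keeps AMPA receptors nearly impermeable to calcium, was read at 153, 155 and 175 CPM in siControl and at 97.5, 95.6 and 109 CPM in siMETTL3. All 3 siMETTL3 libraries lay below all 3 siControl libraries, and the level fell to 62.5% of control (161 ± 12.2 to 101 ± 7.33 CPM, SD, n = 3 each; log2 fold change -0.68 ± 0.070 SE, edgeR FDR 7.92e-06). GRIA2 lies at chr4:157204182-157366075 on the plus strand (hg38). GRIA4, whose subunit forms fast AMPA channels, had 186, 198 and 245 CPM in siControl and 149, 142 and 144 CPM in siMETTL3 (log2 fold change -0.53 ± 0.086 SE, FDR 4.31e-04). GRIA3 had 28.1, 24.6 and 29.8 CPM in siControl and 19.7, 22.3 and 21.3 CPM in siMETTL3 (log2 fold change -0.38 ± 0.096 SE, FDR 0.00695). The groups did not overlap for either gene. GRIA1, whose subunit is delivered to synapses during potentiation, gave 65.3, 61.5 and 70.0 CPM against 57.7, 64.4 and 62.4 CPM, and these overlapped (log2 fold change -0.09, 95% interval -0.23 to 0.05, FDR 0.332). Summed over the family, AMPA transcripts went from 83.9 ± 8.76 to 59.4 ± 1.39 CPM per kb of transcript. Within that sum GRIA2 made up 34.9%, 34.8% and 33.2% in siControl and 29.7%, 29.1% and 31.9% in siMETTL3, and GRIA1 made up 14.96%, 13.8% and 13.3% in siControl and 17.7%, 19.7% and 18.3% in siMETTL3. These are shares of RNA reads and not of channels.

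Kainate receptors modulate transmission on both sides of the synapse. Their low-affinity subunits, encoded by GRIK1 to GRIK3, can form channels on their own, and the high-affinity subunits, encoded by GRIK4 and GRIK5, need a low-affinity partner. Of the 5 genes, 2 rose, 2 fell and GRIK5 did not pass the test. GRIK3 was read at 271, 245 and 219 CPM in siControl and at 497, 503 and 489 CPM in siMETTL3. Its lowest siMETTL3 library was far above its highest siControl library, and the level rose (245 ± 26.3 to 496 ± 7.32 CPM, SD, n = 3 each; 2.02-fold, log2 fold change 1.02 ± 0.071 SE, edgeR FDR 2.47e-07). GRIK4 gave 6.12, 5.41 and 5.04 CPM in siControl and 13.0, 12.4 and 13.8 CPM in siMETTL3, a 2.35-fold rise (log2 fold change 1.24 ± 0.129 SE, FDR 8.59e-06). GRIK2 went the other way, from 382, 392 and 507 CPM to 319, 298 and 308 CPM (log2 fold change -0.47 ± 0.095 SE, FDR 0.00252). The groups did not overlap for GRIK2, and siControl replicate 3 stood above the other 2 control libraries. GRIK1 had 12.3, 13.2 and 11.6 CPM in siControl and 9.86, 7.72 and 10.9 CPM in siMETTL3 (log2 fold change -0.39 ± 0.137 SE, FDR 0.0399). That call was lost under total count scaling (FDR 0.0567, log2 fold change -0.36) and when 1 of 3 libraries was left out: siControl replicate 2 (FDR 0.142, -0.33), siMETTL3 replicate 1 (FDR 0.0840, -0.41) or siMETTL3 replicate 2 (FDR 0.177, -0.26). Moreover, 23.3% of the GRIK1 span overlaps BACH1. GRIK5 averaged 112 ± 9.98 CPM in siControl and 116 ± 6.79 CPM in siMETTL3 (log2 fold change 0.05, 95% interval -0.09 to 0.19, FDR 0.609), and under offsets for transcript GC and length or for intron length its fitted change was below 0.

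The make-up of the kainate family differed between the groups in every library. GRIK3 held 20.2%, 18.7% and 14.6% of the family's CPM per kb of transcript in siControl and 34.7%, 35.9% and 35.2% in siMETTL3. GRIK2 held 57.3%, 60.1% and 68.3% in siControl and 44.9%, 42.7% and 44.5% in siMETTL3. The family sum was 146 ± 10.3 CPM per kb of transcript in siControl and 148 ± 2.16 in siMETTL3. Per kb of gene span instead, GRIK3 went from 32.7% to 50.5% of the family, GRIK2 from 15.5% to 8.45%, and the sum from 3.13 to 4.11 CPM per kb of span.

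**Figure D2:**
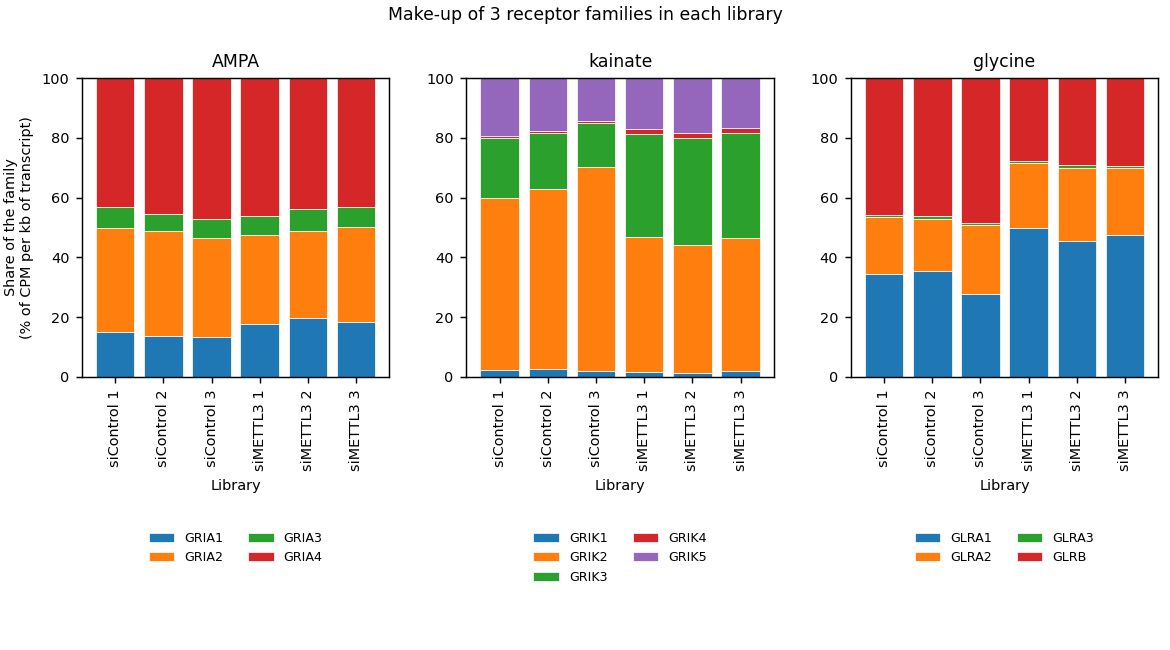
Make-up of the AMPA, kainate and glycine receptor families in each of the 6 libraries, as percent of the family's CPM per kb of transcript; each bar is 1 library and each colour 1 gene. The GRIK3 segment of the kainate bars grows from 14.6 to 20.2% in siControl to 34.7 to 35.9% in siMETTL3, and the GLRB segment of the glycine bars shrinks from 45.7 to 48.4% to 27.6 to 29.6%.

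The delta receptors are related to the ionotropic glutamate receptors but act largely as adhesion and signalling proteins that bind cerebellins and glycine or D-serine. GRID1 had 405, 384 and 391 CPM in siControl and 607, 589 and 567 CPM in siMETTL3, which is a rise to 149% of control (log2 fold change 0.58 ± 0.055 SE, FDR 3.92e-06; 0.38 with the GC and transcript length offset). The groups did not overlap, and the 3 libraries of each group lay close together. Over the 11 receptor genes that fell, siControl replicate 3 was the highest control library in 7, and over the 8 that rose it was the lowest in 5. Among all tested genes it was the highest in 37.6% and the lowest in 40.2%. Those shares cover genes of either direction, called or not, so they are not a like comparison for genes picked by direction. Among the 21 receptor genes not called, siControl replicate 3 was the highest in 10 and the lowest in 4. The median coefficient of variation of the 40 tested receptor genes was 11.8% in siControl and 7.23% in siMETTL3, and that of all tested genes was 8.39% and 5.52%.

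NMDA receptors need the GRIN1 subunit together with GRIN2 or GRIN3 subunits and admit calcium when glutamate and a co-agonist bind during depolarisation. Of their 7 genes, GRIN1 fell and the other 6 did not pass the test. GRIN1 had 77.8, 77.0 and 69.4 CPM in siControl and 56.2, 64.9 and 54.7 CPM in siMETTL3, with no overlap (74.8 ± 4.64 to 58.6 ± 5.49 CPM, SD, n = 3 each; log2 fold change -0.35 ± 0.076 SE, edgeR FDR 0.00250). The partner subunits were read far lower. GRIN2C had 3.29, 3.25 and 3.98 CPM in siControl and 5.00, 4.32 and 5.26 CPM in siMETTL3; the groups were separate, but the test gave FDR 0.0520 (log2 fold change 0.48). It passed under upper quartile scaling (FDR 0.0473), under total count scaling (0.0419) and without siControl replicate 3 (0.0276). GRIN3A averaged 3.43 CPM in siControl and 4.64 CPM in siMETTL3 (FDR 0.113), GRIN3B 3.21 and 3.86 CPM, and GRIN2D 3.95 and 3.91 CPM. GRIN2A and GRIN2B, the main partner subunits of forebrain NMDA receptors, averaged 0.676 and 0.670 CPM in siControl and 0.459 and 0.414 CPM in siMETTL3. At that depth their intervals were wide (log2 fold change -1.42 to 0.34 for GRIN2A and -1.75 to 0.48 for GRIN2B). GRIN1 made up 84.9% of the family's CPM per kb of transcript in siControl and 78.4% in siMETTL3.

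**Figure D3:**
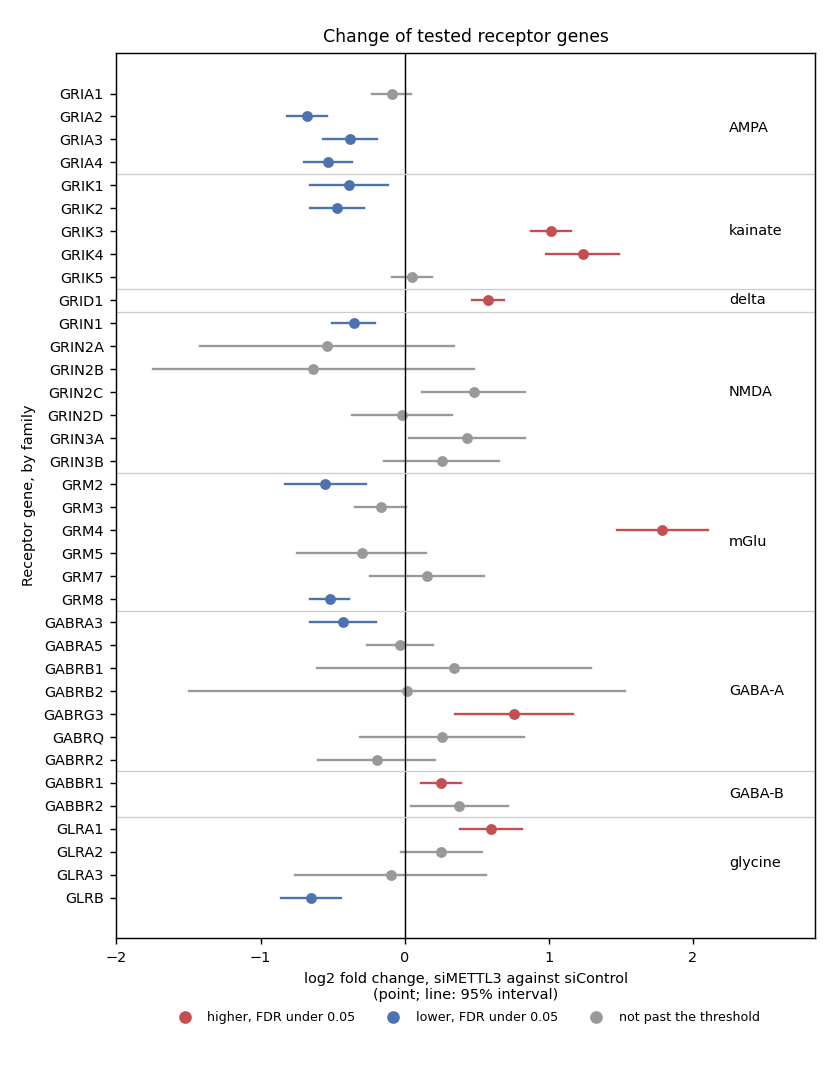
Change of 36 tested receptor genes, as log2 fold change of siMETTL3 against siControl on the horizontal axis. Points are estimates, and lines are 95% intervals from the normal quantile, which are narrower than the F-test implies. Colours show the genes that passed FDR 0.05 in each direction. GRM4 (1.79) lies farthest to the right of the genes that passed and GRIA2 (-0.68) farthest to the left.

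Metabotropic glutamate receptors fall into group I (such as GRM5, coupled to phospholipase C), group II (GRM2 and GRM3) and group III (GRM4, GRM6, GRM7 and GRM8), the latter groups lowering cyclic AMP. Of the 7 genes tested, 2 rose, GRM4 among them, and GRM8 and GRM2 fell. GRM4 had 4.36, 3.25 and 3.32 CPM in siControl and 11.6, 14.6 and 11.9 CPM in siMETTL3. All 3 siMETTL3 libraries were above the controls, and this was the largest fold change of the receptor genes that passed (3.64 ± 0.620 to 12.7 ± 1.67 CPM, SD, n = 3 each; 3.45-fold, log2 fold change 1.79 ± 0.161 SE, edgeR FDR 2.49e-06). GRM8, also of group III, had 426, 425 and 504 CPM in siControl and 327, 305 and 311 CPM in siMETTL3. It fell to 69.7% of control with no overlap (log2 fold change -0.52 ± 0.070 SE, FDR 7.25e-05). In group II, GRM2 had 17.2, 12.4 and 12.6 CPM in siControl and 8.70, 10.5 and 9.79 CPM in siMETTL3 (log2 fold change -0.55 ± 0.143 SE, FDR 0.00793). Its siControl replicate 1 stood above the other controls, and without it the value was -0.37 (FDR 0.0352). GRM3 averaged 33.3 CPM in siControl and 29.6 CPM in siMETTL3 and did not pass (FDR 0.160). In group I, GRM5 had 10.9, 12.8 and 21.7 CPM in siControl and 11.1, 13.3 and 11.98 CPM in siMETTL3, with overlap and FDR 0.342. GRM7 averaged 3.50 and 3.85 CPM (FDR 0.589). The family sum went from 137 ± 13.2 to 99.4 ± 2.44 CPM per kb of transcript, most of it GRM8. Per kb of gene span instead, GRM2 held 61.1% of the family in siControl and 56.0% in siMETTL3, and GRM8 held 28.2% and 26.0%.

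Promoter sequences are shown for 4 receptor genes whose change passed the test, GRIK3 and GRM4 among those that rose and GRM8 and GRM2 among those that fell. They are the 250 bases before the start that RefSeq gives (GRCh38.p14), read 5′ to 3′ along the gene's strand, with capitals marking any of 5 motifs searched on both strands: the SP1 box GGGCGG, the E-box CACGTG that MYC proteins bind, the left arm of the RE1 element TTCAGCACC, the TATA box TATAAA and the cyclic AMP response element TGACGTCA. Overlapping copies of a motif were counted separately.
GRIK3: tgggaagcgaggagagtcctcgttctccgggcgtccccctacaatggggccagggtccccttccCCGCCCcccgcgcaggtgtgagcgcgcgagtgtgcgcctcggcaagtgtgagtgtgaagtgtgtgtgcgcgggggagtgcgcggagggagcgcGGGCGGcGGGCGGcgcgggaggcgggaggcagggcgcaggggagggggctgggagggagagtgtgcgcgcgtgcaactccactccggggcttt
GRM4: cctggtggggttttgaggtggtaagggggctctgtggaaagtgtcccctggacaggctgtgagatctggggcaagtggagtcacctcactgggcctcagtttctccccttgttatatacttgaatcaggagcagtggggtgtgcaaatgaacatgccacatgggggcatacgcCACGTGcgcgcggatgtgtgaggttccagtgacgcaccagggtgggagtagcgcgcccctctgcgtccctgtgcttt
GRM8: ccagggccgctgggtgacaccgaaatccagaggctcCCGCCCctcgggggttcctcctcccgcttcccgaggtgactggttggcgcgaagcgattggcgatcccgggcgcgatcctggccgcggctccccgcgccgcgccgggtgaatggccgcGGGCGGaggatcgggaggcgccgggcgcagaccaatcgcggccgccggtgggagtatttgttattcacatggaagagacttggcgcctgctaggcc
GRM2: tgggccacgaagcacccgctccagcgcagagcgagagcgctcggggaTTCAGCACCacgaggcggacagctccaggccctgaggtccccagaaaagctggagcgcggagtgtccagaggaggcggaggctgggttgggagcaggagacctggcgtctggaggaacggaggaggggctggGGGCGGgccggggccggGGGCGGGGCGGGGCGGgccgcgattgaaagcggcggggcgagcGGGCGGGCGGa
The windows lie at chr1:37034516-37034765 (minus strand) for GRIK3, chr6:34146088-34146337 (minus) for GRM4, chr7:127252942-127253191 (minus) for GRM8 and chr3:51706818-51707067 (plus) for GRM2. GRIK3 holds 3 SP1 boxes, GRM8 holds 2, GRM2 holds 6 and 1 RE1 left arm, and GRM4 holds 1 E-box and no SP1 box. The RefSeq table held promoters for 38 of the 52 receptor genes. An SP1 box stood in 20 of these 38 (52.6%), beside 42.3% of all 27305 promoters of that length. The E-box was found in GRM4 alone of the 38 (2.63%), beside 6.49% of all promoters, and the RE1 left arm in GRM2 alone, beside 0.3%. The TATA box was found in GABRR2 alone, beside 11.1% of all promoters, and the cyclic AMP response element in GABBR1 alone, beside 1.77%. A match describes the letters and is not a measured binding site.

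METTL3 acts at a preferred RNA sequence, of which GGACT (in DNA letters) is the best known form. All 40 tested receptor genes carry GGACT at least once in their canonical transcript, beside 91.3% of all tested genes with a transcript, and the median density was 1.05 and 0.929 copies per kb. Over the 51 receptor genes that matched a coding transcript, 277 copies were found, of which 145 lie in coding sequence and 111 in the 3′ untranslated region. GRM8 ranked first in siControl by CPM per kb of transcript, and number 8 per kb of gene span. It has a single copy of GGACT, in its coding sequence at bases 2422 to 2426 of a transcript of 3704 bases. That copy is shown here in capitals with 10 bases on each side because it is the only one in the GRM8 transcript.
GRM8: ggtcttcctaGGACTtggcatgtgt
GRIK3, which rose, carries 7 copies in 9491 bases, and GRM4, which also rose, carries 8 in 7368 bases. GRIA4, which fell, also carries 8, and GRIK4, which rose, carries 3. The median density was 1.095 copies per kb for the receptor genes that rose and 1.19 for those that fell. The files measure no RNA methylation, so whether any copy is methylated in Kelly cells was not tested.

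GABA-A receptors usually combine alpha and beta subunits with a gamma or delta subunit. Of the 19 genes of this family, 9 were tested, GABRG3 rose, GABRA3 fell and 7 did not pass. GABRA3 had 10.8, 10.7 and 10.5 CPM in siControl and 7.82, 7.99 and 7.94 CPM in siMETTL3, tightly grouped and separate (log2 fold change -0.43 ± 0.117 SE, FDR 0.0111). GABRG3 had 2.32, 2.60 and 1.79 CPM in siControl and 3.69, 3.95 and 3.85 CPM in siMETTL3 (1.69-fold, log2 fold change 0.76 ± 0.210 SE, FDR 0.0113). GABRA5 averaged 13.5 and 13.2 CPM (FDR 0.867), but 88.3% of its span overlaps another gene, whose reads cannot be told apart from its own without strand. GABRR2, GABRQ, GABRB1 and GABRB2 averaged between 0.410 and 4.26 CPM in both groups and did not pass. The other 10 genes of the family, among them GABRD, GABRR3, GABRG1, GABRA2, GABRA4, GABRA6, GABRP, GABRR1 and GABRE, were too low to test, as were GRM6 and GLRA4. Each of these 12 genes had at most 16 reads in any library and 1 to 45 reads over all 6. A count of 0 in a library still allows up to 3 reads, counting error only.

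The GABA-B receptor is an obligate pair of the GABBR1 subunit, which binds GABA, and the GABBR2 subunit, which couples to the G protein. GABBR1 had 37.1, 36.5 and 33.8 CPM in siControl and 42.3, 42.7 and 43.0 CPM in siMETTL3 (log2 fold change 0.25 ± 0.071 SE, FDR 0.0130). The groups were separate, but the call was lost with an offset for transcript GC and length (log2 fold change 0.07, FDR 0.439), with that offset and the replicate block (0.07, FDR 0.476) and with an intron length offset (0.14, FDR 0.140), and 14.8% of the GABBR1 span overlaps other genes. GABBR2 had 4.08, 3.45 and 4.25 CPM in siControl and 5.54, 4.68 and 5.06 CPM in siMETTL3, separate but not past the threshold (log2 fold change 0.38, FDR 0.101).

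Glycine receptors combine alpha subunits with the beta subunit GLRB, which binds the scaffold gephyrin. GLRA1, the adult alpha subunit of spinal cord, rose, and GLRB fell. GLRA1 had 10.3, 11.3 and 9.69 CPM in siControl and 15.6, 15.3 and 16.6 CPM in siMETTL3 (1.51-fold, log2 fold change 0.60 ± 0.109 SE, FDR 7.36e-04). GLRB had 22.9, 24.6 and 28.1 CPM in siControl and 14.5, 16.4 and 17.2 CPM in siMETTL3, a fall to 63.8% of control (log2 fold change -0.65 ± 0.105 SE, FDR 3.23e-04). Neither gene's groups overlapped. As shares of the family's CPM per kb of transcript, GLRA1 went from 34.3%, 35.3% and 27.9% in siControl to 49.8%, 45.5% and 47.5% in siMETTL3, and GLRB from 45.7%, 46.1% and 48.4% to 27.6%, 29.2% and 29.6%. GLRA2, the alpha subunit typical of the embryo, had 10.2, 9.86 and 14.1 CPM in siControl and 12.2, 14.4 and 13.8 CPM in siMETTL3, with overlap (log2 fold change 0.25, FDR 0.179). It passed without siControl replicate 3 (log2 fold change 0.43, FDR 0.00861). GLRA3 averaged 1.35 and 1.26 CPM (FDR 0.850).

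Genes that work with these receptors were read from 5 lists, whose called shares stand beside the 37.8% of all tested genes (18.6% higher and 19.2% lower). Of the auxiliary subunits that traffic and gate glutamate receptors, 12 of 14 genes were tested, 4 rose and 1 fell (median log2 fold change 0.31); the 41.7% called is near the share of all genes. Those that rose were 3 TARP genes and a cornichon. CACNG4 went from 106, 89.6 and 80.0 CPM to 156, 156 and 147 CPM (log2 fold change 0.73 ± 0.086 SE, FDR 3.74e-05). CACNG7 averaged 14.3 CPM in siControl and 23.0 CPM in siMETTL3 (0.68, FDR 5.31e-04), CACNG5 1.89 and 6.12 CPM (1.68, FDR 4.18e-05), and CNIH3, which overlaps WDR26, 31.3 and 45.0 CPM (0.52, FDR 1.68e-04). These genes rose while 3 of the 4 AMPA receptor genes fell. NETO2, a kainate receptor auxiliary subunit, was the 1 that fell, by 0.16 on the log2 scale (FDR 0.0461).

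All 18 genes of the excitatory postsynaptic scaffolds were tested, 5 rose and 1 fell (median log2 fold change 0.12). The 33.3% called is near the 37.8% of all genes. DLGAP2 averaged 55.4 CPM in siControl and 83.6 CPM in siMETTL3 (log2 fold change 0.59, FDR 3.83e-05), DLGAP4 65.3 and 98.6 CPM (0.59, FDR 2.03e-04), and SHANK1 42.6 and 59.6 CPM (0.48, FDR 2.06e-04). With the GC and transcript length offset DLGAP4 was at 0.38 and SHANK1 at 0.27, still past the threshold. SHANK2 averaged 51.3 and 92.8 CPM (0.85, FDR 0.00491), and with the intron length offset its FDR was 0.0688 at a log2 fold change of 0.79. The count of 6 fell to 3 among genes with no overlapping neighbour, where 13 of the 18 were tested. The called genes DLGAP2, DLG4 and HOMER3 overlap other genes and were not tested there. With single libraries left out, the count was lowest at 4 (siMETTL3 replicate 2 absent) and highest at 9 (siControl replicate 3 absent). Of 11 scaffolds and partners of the inhibitory receptors, 4 rose and 4 fell (median -0.03), which is 72.7% called beside 37.8% of all genes. PLCL1, whose product binds GABA-A receptors and their trafficking proteins, went from 16.9, 15.8 and 21.3 CPM to 49.7, 45.7 and 48.5 CPM (1.43 ± 0.102 SE, FDR 2.86e-07). LHFPL4, which GABA-A receptors need at synapses, averaged 42.6 and 60.2 CPM (0.50, FDR 1.88e-04; 0.28 with the GC and transcript length offset), and GABARAPL1 10.5 and 15.99 CPM (0.62, FDR 5.17e-04). KCTD12, an auxiliary subunit of the GABA-B receptor, fell from 76.8 to 55.3 CPM (-0.47, FDR 1.60e-04; -0.30 with the intron length offset).

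**Figure D4:**
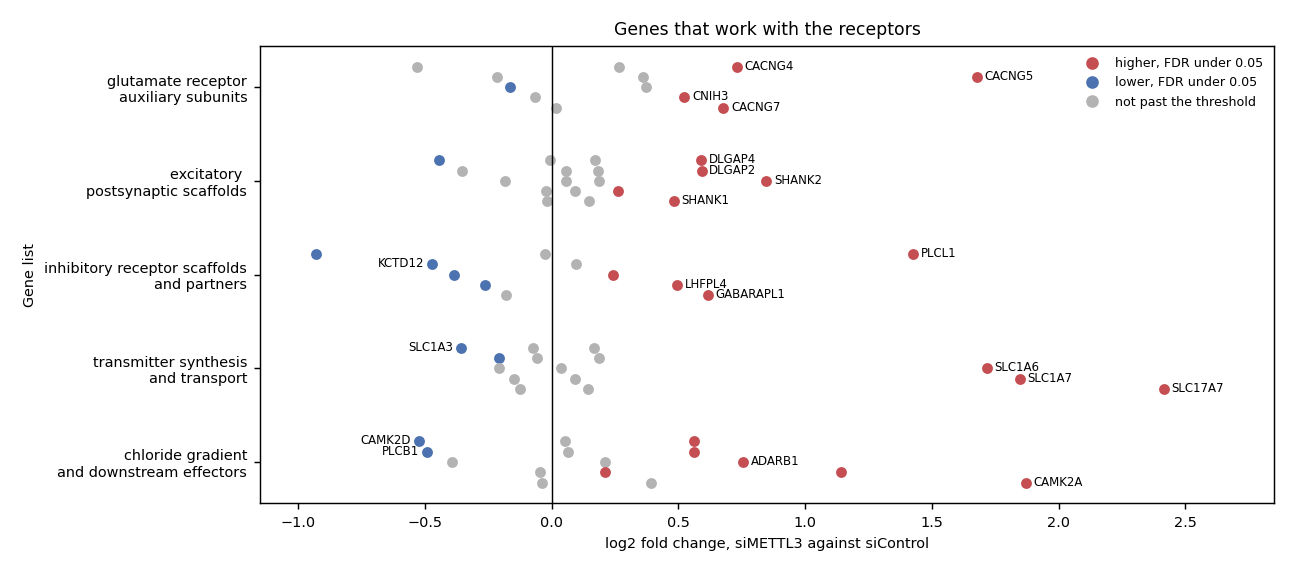
Change of the tested genes of 5 lists of receptor partners, as log2 fold change of siMETTL3 against siControl; each point is 1 gene, its colour shows whether and in which direction it passed FDR 0.05, and up to 4 genes with the smallest FDR are named in each list. CAMK2A (1.87) and PLCL1 (1.43) lie far to the right of their lists, and the vertical offset of the points within a list has no meaning.

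Of 23 genes for transmitter synthesis and transport, 16 were tested, 3 rose and 3 fell (median -0.01), which is 37.5% called beside 37.8% of all genes. SLC1A3, a glial-type glutamate transporter, fell from 76.0 to 59.4 CPM (log2 fold change -0.36, FDR 5.38e-04). The 3 that rose were all low: SLC1A7 averaged 0.423 and 1.54 CPM (1.85, FDR 0.00128), SLC1A6 0.490 and 1.68 CPM (1.72, FDR 0.00241), and SLC17A7, the vesicular glutamate transporter, 0.204 and 1.07 CPM (2.41, FDR 0.00470). Of 15 genes for the chloride gradient and downstream signalling, all tested, 6 rose and 2 fell (median 0.21), which is 53.3% called beside 37.8% of all genes. Without siMETTL3 replicate 3 the calls numbered 5 in place of 8. CAMK2A, the alpha chain of the kinase that calcium through NMDA receptors activates, had 12.2, 11.6 and 9.76 CPM in siControl and 40.8, 41.8 and 41.1 CPM in siMETTL3 (log2 fold change 1.87 ± 0.095 SE, FDR 1.28e-08). It overlaps SLC6A7. ADARB1, which edits GRIA2 RNA, averaged 51.7 and 87.6 CPM (0.76, FDR 2.54e-05). CAMK2D fell from 117 to 81.3 CPM (-0.52, FDR 1.33e-04) and PLCB1, which group I metabotropic receptors engage, from 458 to 326 CPM (-0.49, FDR 0.00515).

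Other called genes of these lists were named after their values were seen, and they were not followed singly through the alternative settings. DLG4, the main scaffold of the postsynaptic density, rose by 0.26 on the log2 scale (FDR 0.0104) and HOMER3 fell by 0.44 (FDR 0.0392). Among the inhibitory partners CLPTM1 rose by 0.24 (FDR 0.00824), while GABARAP fell by 0.26 (FDR 0.0305), GABARAPL2 by 0.38 (FDR 0.0124) and KCTD16 by 0.93 (FDR 8.43e-04). Other genes overlap 82.8% of the GABARAP span, 43.1% of the HOMER3 span and 9.07% of the DLG4 span. Reads over these stretches cannot be told apart without strand. GLUL, the glutamine synthetase gene, fell by 0.21 (FDR 0.00694). In the signalling list NOS1 rose by 1.14 (FDR 0.00954), CAMK2B by 0.56 (FDR 0.00888) and the G protein gene GNAQ by 0.21 (FDR 0.0261). SLC12A5, the neuronal chloride exporter, had 3.99, 3.65 and 2.46 CPM in siControl and 4.67, 5.65 and 4.82 CPM in siMETTL3 (log2 fold change 0.56, FDR 0.0402). SLC12A2, the chloride importer, averaged 53.2 and 51.4 CPM and did not pass (FDR 0.632).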

How the data were processed

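Poly(A) RNA-seq of 6 Kelly libraries was analysed, 3 siControl and 3 siMETTL3. The deposited values are raw read counts per gene, which the authors made with featureCounts 1.5.3 on GENCODE 33 protein-coding genes, per the file headers. Per those headers, counting covered the whole gene span, let 1 read count for several overlapping genes and named no strand option. The submitters' processing notes also name FastQC 0.11.5, Trimmomatic 0.36, HISAT2 2.1.0 and GRCh38. The header calls the counted alignments picard output, with settings not given in the sources used here.

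From the counts, edgeR 4.0.16 (R 4.3.3) was run with filterByExpr, TMM scaling and the robust quasi-likelihood F-test over all 15311 genes that passed, with Benjamini-Hochberg FDR 0.05. CPM use TMM-scaled library sizes. SE was taken as the size of the log2 fold change over root F, and 95% intervals from that SE and the normal quantile. Such intervals are narrower than the F-test implies. The interval of GRIN3A, 0.033 to 0.84, leaves out 0, while the F-test gave p 0.0527. Levels between genes use GENCODE 44 canonical transcript lengths, which 51 of the 52 receptor genes matched. Receptor genes were named in full where they passed or averaged at least 5 CPM, otherwise by their values or range; untested ones by counts; of each partner list, the up to 4 genes with the smallest FDR past 0.05. Some of these genes are included in the counts but not reported here by name. The name rule uses no values, but these receptor families and the lists were chosen with earlier results of these data known. Replicate numbers were not treated as pairs. Alternatives were other scalings and filters, DESeq2 1.42.0, limma-voom 3.58.1, a replicate block, offsets for GC, transcript length and intron length (splines with 5 degrees of freedom), genes without overlaps, and each library left out. Totals of 15430000 to 21565013 counts set the precision: untested genes had at most 16 reads in a library.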

Additional observations from a re-analysis of the deposited data

How the results depend on the processing

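Over all alternatives, 7 to 10 receptor genes were higher and 10 to 13 lower, beside 8 and 11. Of the 19 that passed, 17 passed in every alternative that could test them, GRIK1 and GABBR1 did not, and none changed sign. With the replicate block 6166 genes were called in place of 5786 and 8 receptor genes were higher and 11 lower as without it; libraries with the same number correlated at 0.0401, 0.0494 and 0.0671, so the numbers were not taken as pairs. With the intron length offset 37.3% of all calls were higher (2249 higher, 3782 lower), beside 49.2%; the cause was not tested. Restricted to the 9518 tested genes without overlaps, 1852 were higher and 1898 lower, and 3 scaffold genes were called in place of 6; fewer genes were tested there. Leaving out 1 library gave 2091 to 3178 genes higher, 2119 to 3216 lower, 8 to 10 receptor genes higher, 10 to 11 lower, and a METTL3 log2 fold change of -0.74 to -0.69. In the same runs, calls numbered 4 to 6 for auxiliary subunits, 4 to 9 for scaffolds, 6 to 8 for inhibitory partners, 4 to 7 for transmitter genes and 5 to 9 for chloride and downstream genes. Signs changed for 9 of the reported genes that had not passed. GRIK5 was at -0.13 with the GC and transcript length offset, -0.13 with that offset and the block and -0.061 with the intron length offset. GABRB2 was at -0.084 with the intron length offset and -0.83 with limma-voom, and GRIN2D at 0.0012 with total count scaling. With 1 library left out, the values ran from -0.019 to 0.68 for GABRB1, -0.41 to 0.11 for GLRA3, -0.52 to 0.58 for GABRB2, -0.33 to 0.0018 for GABRR2, -0.49 to 0.032 for GRM5, -0.10 to 0.086 for GABRA5, -0.0075 to 0.12 for GRIK5, -0.081 to 0.059 for GRIN2D and -0.018 to 0.45 for GABRQ. GRIA1 (-0.17) and GRM3 (-0.27) passed with the GC and transcript length offset, as they did with the intron length offset; GRIN2C and GLRA2 passed in the alternatives given above and GLRA2 also with the offset and block (0.31). The cause was not tested. Depth limited the 12 untested genes and those under 1 CPM.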
